A study of Gallus gallus with 45 samples.

Results

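The change from HH5 to HH6 was measured in patches of chick tissue taken lateral to the primitive streak. The comparison used the 4 libraries labelled HH6 and the 4 labelled HH5, 8 of the 45 libraries of a series that follows the cranial neural plate border and neural crest over 12 stages. All were bulk RNA libraries from untreated wild-type Gallus gallus embryos, made with an unstranded kit. For each library, rectangular patches lying where fate maps place the midbrain neural crest were cut from both sides of several embryos and pooled. HH5 and HH6 are Hamburger-Hamilton stages at the end of gastrulation, the head process and head fold stages. Each value is therefore an average over every cell in the patches, and fewer cells of a type cannot be told apart from less RNA per cell.

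At these stages the ectoderm beside the streak lies over mesoderm and endoderm and is being divided into neural plate, neural plate border and non-neural ectoderm. The border is known for switching on Pax, Zic, Msx and Tfap2 transcription factors under Wnt, BMP and FGF signals, and the neural crest later arises from it. Cells farther lateral and posterior in the same sheet carry Cdx, Gata and keratin genes, and the deep layer next to the yolk carries genes for lipid and vitamin transport.

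The labels name the cell type neural crest, and the patches held more than that. FOXD3, a crest specifier, lay between 0.231 and 0.416 CPM (reads per 1000000, scaled with TMM factors) at HH5 and between 0.0878 and 0.277 CPM at HH6. Markers of other layers were present at both stages. TBXT, the Brachyury gene of the streak, lay between 19.2 and 37.8 CPM at HH5 and between 11.8 and 17.1 CPM at HH6, and the endoderm gene SOX17 between 9.94 and 24.8 CPM and between 1.56 and 8.70 CPM.

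The HH5 libraries held 21693632 to 25893104 reads on genes and the HH6 libraries 19962541 to 30501972. HH6 replicate 1 stood apart from the other HH6 libraries. Its place was measured on genes called without it, on a log2 scale where 0 is the mean of HH5 and 1 the mean of the other HH6 libraries. Its median position was 0.41 over the 196 genes that rose and 0.34 over the 300 that fell. HH6 replicates 2, 3 and 4 were each placed on the genes called without that library, 57, 117 and 46 in number. They had medians of 1.15, 0.87 and 1.19 for rising genes and 1.14, 0.83 and 1.17 for falling genes. The HH6 mean in these placements included replicate 1, and the genes differed, so the positions are not strictly like for like. Among HH5 libraries, replicate 4 was the farthest toward HH6, with medians of 0.33 in both directions. Results are therefore given with and without HH6 replicate 1. It was singled out because its values lay near HH5, so leaving it out tends to widen the differences between the stages. Adjusted p-values without it are therefore likely to be too low.

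**Figure D1:**
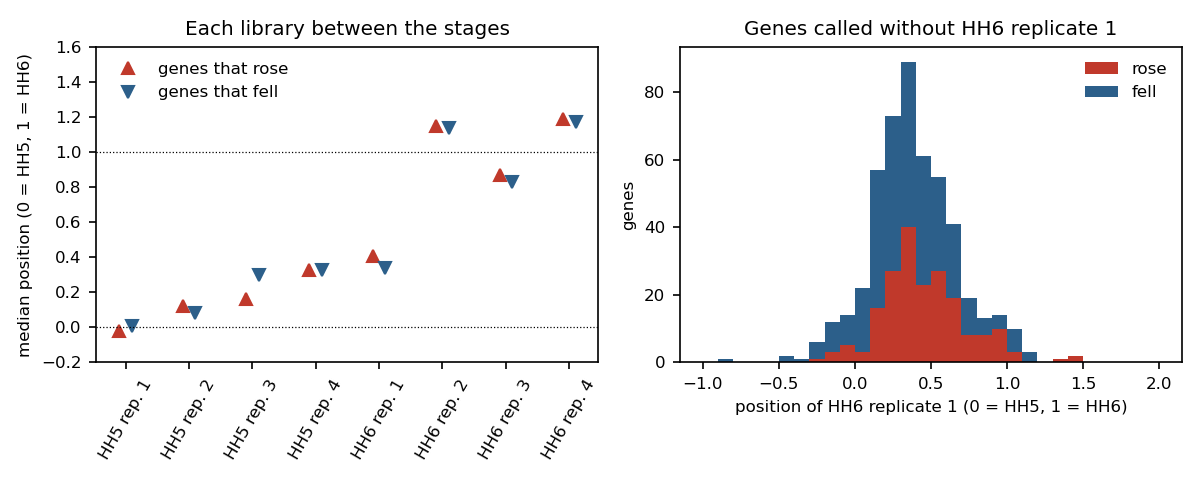
The left panel plots, for each of the 8 libraries, its median position between the other libraries of HH5 (0) and HH6 (1), over genes that rose (triangles pointing up) and fell (pointing down) when that library was left out. The right panel is a stacked histogram of the position of HH6 replicate 1 over the 496 genes called without it, where most genes lie between 0 and 1.

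Of 18525 genes tested, 240 differed (1.30%) by edgeR's quasi-likelihood test, with a Benjamini-Hochberg adjusted p below 0.05 and a log2 fold change beyond 0.75. Of these, 116 rose (0.626%) and 124 fell (0.669%). Without HH6 replicate 1 the count was 496 (2.68%), with 196 rising (1.06%) and 300 falling (1.62%), and these included 235 of the 240. Without HH6 replicate 4 it was 46 (0.248%), with 26 rising (0.140%) and 20 falling (0.108%), and without HH6 replicate 2 it was 57. A core of 34 genes, 21 rising and 13 falling, was called in the full fit and in all 8 fits that left out 1 library. The count was also below 240 by more than 1.5 times without HH5 replicate 1 (82), HH5 replicate 2 (114) or HH6 replicate 3 (117).

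The 4 HH6 libraries all lay above the 4 HH5 libraries for 100 of the 116 genes that rose, and all below for 95 of the 124 that fell. Over all genes tested, 5.39% lay wholly above and 5.38% wholly below. The genes were called on these same libraries, so their separation follows largely from the call and is no separate support for it. The next stage was labelled HH7 and is here called 1ss. For 98 of the rising genes and 119 of the falling genes, its mean lay beyond the HH5 to HH6 midpoint, on the HH6 side. The same count was not made over all genes tested. The 1ss tissue was neural plate border, dissected differently from the patches.

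PAX7 and TFAP2B were among the firmest rises, while most other border and crest genes were not called. PAX7, a paired-box factor of the neural plate border, measured 2.29, 3.01, 2.27 and 2.31 CPM in HH5 replicates 1 to 4 and 12.7, 23.8, 9.89 and 14.4 CPM in HH6 replicates 1 to 4. The 2 stages did not overlap, and HH6 replicate 1 was within the range of the other HH6 libraries. The log2 fold change was 2.62 ± 0.36 (SE, n = 4 and 4; adjusted p = 5.67e-05 by edgeR's quasi-likelihood test).

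TFAP2B, an AP-2 factor of the crest, measured 1.83, 1.74, 1.27 and 0.870 CPM at HH5 and 15.3, 16.9, 6.92 and 5.37 CPM at HH6. Every HH6 library was above every HH5 library, with replicates 3 and 4 the lowest of HH6. Its log2 fold change of 2.96 ± 0.54 (adjusted p = 0.00161, edgeR) was the largest rise among the genes named by rule, and like PAX7 it was called in all 8 fits that left out a library.

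ZIC1, a zinc finger factor of the border and neural plate, measured 4.31, 6.45, 2.89 and 1.02 CPM at HH5 and 9.75, 8.91, 14.6 and 7.80 CPM at HH6. It rose by 1.49 ± 0.41 on the log2 scale (adjusted p = 0.0467, edgeR). It was called in 2 of the 8 fits without 1 library, with adjusted p between 0.0291 and 0.152. ZEB2, a repressor used in neural induction and in crest cells leaving the epithelium, measured 20.6, 26.3, 26.0 and 21.6 CPM at HH5 and 44.9, 57.6, 52.4 and 45.5 CPM at HH6. The stages were well separated, with a log2 fold change of 1.08 ± 0.29 (adjusted p = 0.0349, edgeR). It was called in 1 of the 8 fits without 1 library, that without HH6 replicate 1, with adjusted p between 0.031 and 0.142.

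**Figure D2:**
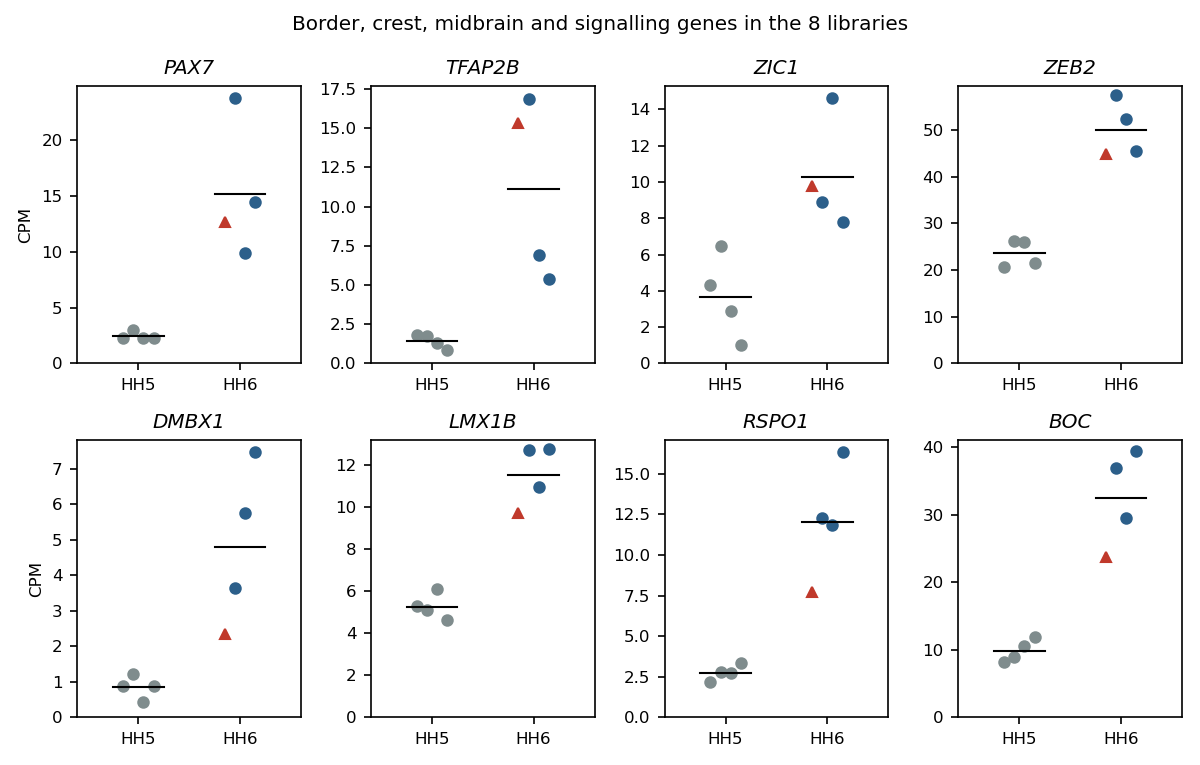
CPM (vertical axes, each starting at 0) of PAX7, TFAP2B, ZIC1, ZEB2, DMBX1, LMX1B, RSPO1 and BOC in the 4 HH5 libraries (grey) and 4 HH6 libraries (blue, with HH6 replicate 1 as a red triangle); horizontal lines are means. In all 8 genes the HH6 libraries, replicate 1 included, lie above every HH5 library.

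Of the 12 crest genes tested, 3 rose (TFAP2B, PAX7 and ZEB2) and 0 fell, with a median log2 fold change of 0.37 against 0.0049 over all genes. Of the 19 border genes, 2 rose (PAX7 and ZIC1) and 0 fell, with a median of 0.44. The rest of these lists did not pass the test. SNAI2, which drives crest delamination, had a log2 fold change of 0.43 ± 0.41, SOX8 0.96 ± 0.42, SOX9 0.72 ± 0.59 and TFAP2A 0.16 ± 0.24, none of them called. FOXD3 and MSX1, also in the crest list and not called, went the other way, at -1.14 and -0.43. At an unadjusted p below 0.05, 4 crest genes were higher and 1 lower (edgeR). Over all genes tested, 0.626% were called as rises and 0.669% as falls, and 6.91% were higher and 6.83% lower at that p. The crest list summed to 242 to 561 CPM at HH5 and 242 to 378 CPM at HH6. ZIC2 measured 0.114 to 0.348 CPM at HH5 and 0.614 to 0.908 CPM at HH6, with an adjusted p of 0.0627 (edgeR).

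With all libraries, 5 border genes were higher and 3 lower at an unadjusted p below 0.05 (edgeR). DESeq2 with all libraries called 4 rises and 2 falls in the list. These falls were MSX2 (adjusted p = 0.0307) and TFAP2C (adjusted p = 0.0169, DESeq2). By edgeR's calls the border list divided without HH6 replicate 1. PAX3 was then called as a rise (log2 fold change 1.01 ± 0.29, adjusted p = 0.0427, edgeR), while MSX2, a target of BMP signals, was called as a fall. MSX2 measured 9.73, 11.3, 9.06 and 10.98 CPM at HH5 and 8.17, 1.54, 1.51 and 1.46 CPM at HH6. HH6 replicate 1 was thus close to HH5 while the other HH6 libraries were close to each other, and the log2 fold change was -1.70 ± 0.53 with it (adjusted p = 0.0795) and -2.79 without it (adjusted p = 0.00195, edgeR). TFAP2C, an AP-2 factor of non-neural ectoderm, was also called as a fall without that library (-1.21, adjusted p = 0.0284, edgeR). MSX1 and DLX5 were called in neither fit, with log2 fold changes of -0.43 ± 0.45 and -0.48 ± 0.24.

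Some neural genes were called. Of 22 forebrain and midbrain genes, 2 rose and 0 fell with and without HH6 replicate 1, at a median of 0.35 with all libraries. Over all genes tested, 0.626% rose and 0.669% fell with all libraries. DMBX1, a homeobox gene of the midbrain, measured 0.878, 1.22, 0.424 and 0.870 CPM at HH5 and 2.34, 3.64, 5.76 and 7.46 CPM at HH6, with no overlap and a log2 fold change of 2.51 ± 0.48 (adjusted p = 0.00234, edgeR). It was called in all 8 fits without 1 library. LMX1B, a LIM homeobox gene of the midbrain-hindbrain region, measured 5.30, 5.10, 6.09 and 4.62 CPM at HH5 and 9.75, 12.7, 10.97 and 12.8 CPM at HH6. Its rise of 1.13 ± 0.29 was called (adjusted p = 0.0272, edgeR), and in 2 of the 8 fits without 1 library (adjusted p between 0.0207 and 0.121).

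Among 16 neural plate genes, ZEB2 rose and CDH2 fell. Both are also in the cadherin and epithelial-mesenchymal transition list, where with all libraries they were the only edgeR calls among 19 genes. CDH2 encodes N-cadherin, the adhesion molecule that the neural plate takes up in place of E-cadherin and that mesoderm also carries. It measured 55.1, 41.9, 48.6 and 56.6 CPM at HH5 and 34.8, 21.8, 26.0 and 28.6 CPM at HH6, and fell by 0.86 ± 0.24 on the log2 scale (adjusted p = 0.048, edgeR). Its call held in 1 of the 8 fits without 1 library, that without HH6 replicate 1 (adjusted p between 0.0211 and 0.202). SOX2, a factor of neural progenitors, had a log2 fold change of 0.90 ± 0.36 (adjusted p = 0.212), and OTX2, a factor of the anterior head, 0.24 ± 0.30 (adjusted p = 0.803, edgeR).

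Genes of the streak did not pass the test in the fit of all 45 libraries. In the list of 19 primitive streak and mesendoderm genes edgeR called 0, with a median log2 fold change of -0.45. At an unadjusted p below 0.05, 2 were higher and 4 lower, and DESeq2 called 0. Over all genes tested, 6.91% were higher and 6.83% lower at that p. TBXT measured 30.0, 21.4, 37.8 and 19.2 CPM at HH5 and 11.8, 12.3, 14.3 and 17.1 CPM at HH6, so the stages did not overlap. Its log2 fold change of -0.96 ± 0.61 had an adjusted p of 0.523 (edgeR). In an edgeR fit of only the 8 HH5 and HH6 libraries, TBXT was called as a fall (-0.97, adjusted p = 0.0432). WNT3A, a Wnt ligand of the streak, also lay lower in every HH6 library (1.04 to 9.32 CPM against 12.7 to 23.0 CPM at HH5, adjusted p = 0.22, edgeR), and FGF19 higher in every HH6 library (4.65 to 11.9 CPM against 1.02 to 4.31 CPM, adjusted p = 0.327). EOMES and MIXL1, T-box and homeobox factors of mesendoderm, overlapped between the stages.

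Some genes of the deeper layers fell, and their number depended on single libraries. Over all genes tested, 0.669% fell with all libraries, 1.62% without HH6 replicate 1 and 0.108% without HH6 replicate 4. These shares stand beside the counts of the deeper-layer, posterior and epidermis lists that follow. Without HH6 replicate 4, 0 genes fell in the endoderm, yolk-type, mesoderm, blood and vessel, posterior, epidermis and BMP and Nodal lists by edgeR, while the crest list kept 2 of its 3 rises and the border list 1 of 2. Of 12 endoderm genes 1 fell with all libraries and 3 without HH6 replicate 1, and the list's median log2 fold change was -1.24 and -1.81. HHEX, a homeobox factor of anterior endoderm, measured 45.7, 32.1, 27.3 and 44.7 CPM at HH5 and 19.8, 3.64, 5.99 and 4.30 CPM at HH6. It fell by 2.15 ± 0.51 on the log2 scale (adjusted p = 0.0166, edgeR), and was called in 4 of the 8 fits without 1 library (adjusted p between 0.000628 and 0.121). SOX17 and GATA6 were not called in the full edgeR fit. Without HH6 replicate 1 they were called as falls, at log2 fold changes of -2.37 (adjusted p = 0.0496) and -2.22 (adjusted p = 0.0196, edgeR). FOXA2, of endoderm and node, was lower in all HH6 libraries and was called in neither of these 2 fits. DESeq2 with all libraries called 3 falls and 0 rises in the endoderm list, with GATA6 among the falls (adjusted p = 0.0243).

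The 9 genes of yolk-type transport had the lowest median of the lists, -1.66, and 2 of them fell. With all libraries, 5 were lower and 1 higher at an unadjusted p below 0.05 (edgeR), against 6.83% and 6.91% of all genes tested. AMN lay higher in every HH6 library and RBP4 overlapped between the stages, and neither was called. APOA1, an apolipoprotein, measured 369, 766, 349 and 817 CPM at HH5 and 336, 131, 105 and 151 CPM at HH6, with HH6 replicate 1 just under the lowest HH5 library. Its log2 fold change was -1.67 ± 0.41 (adjusted p = 0.0227, edgeR), called in 3 of the 8 fits without 1 library (adjusted p between 0.00275 and 0.122). CUBN, a receptor for endocytosed proteins, measured 0.916, 2.66, 0.963 and 3.41 CPM at HH5 and 0.765 CPM in HH6 replicate 1, and it had at most 3 reads in each of the other HH6 libraries. Against 3 reads a library, it was at least 16.9-fold lower in those libraries. The fall was called with all libraries (adjusted p = 0.039, edgeR). Of the fits without 1 library, it was called only without HH5 replicate 3 or HH6 replicate 1. Adjusted p over these fits was between 0.00184 and 0.216 (edgeR).

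TTR, the carrier of thyroid hormone and retinol-binding protein, was split among the HH6 libraries. It measured 147, 285, 83.3 and 319 CPM at HH5 and 83.1 CPM in HH6 replicate 1, but 5.79, 1.04 and 1.18 CPM in HH6 replicates 2 to 4. The fall was not called with all libraries (adjusted p = 0.174) and was called without HH6 replicate 1, at a log2 fold change of -6.32 ± 1.48 (adjusted p = 0.00873, edgeR). RBP4A, a retinol-binding protein outside the list, fell in both fits. It was called in 2 of the 8 fits without 1 library (adjusted p between 0.0151 and 0.141, edgeR). It measured 174, 322, 113 and 342 CPM at HH5 and 52.1, 23.8, 15.4 and 18.8 CPM at HH6 (log2 fold change -3.11 ± 0.79, adjusted p = 0.0251, edgeR).

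**Figure D3:**
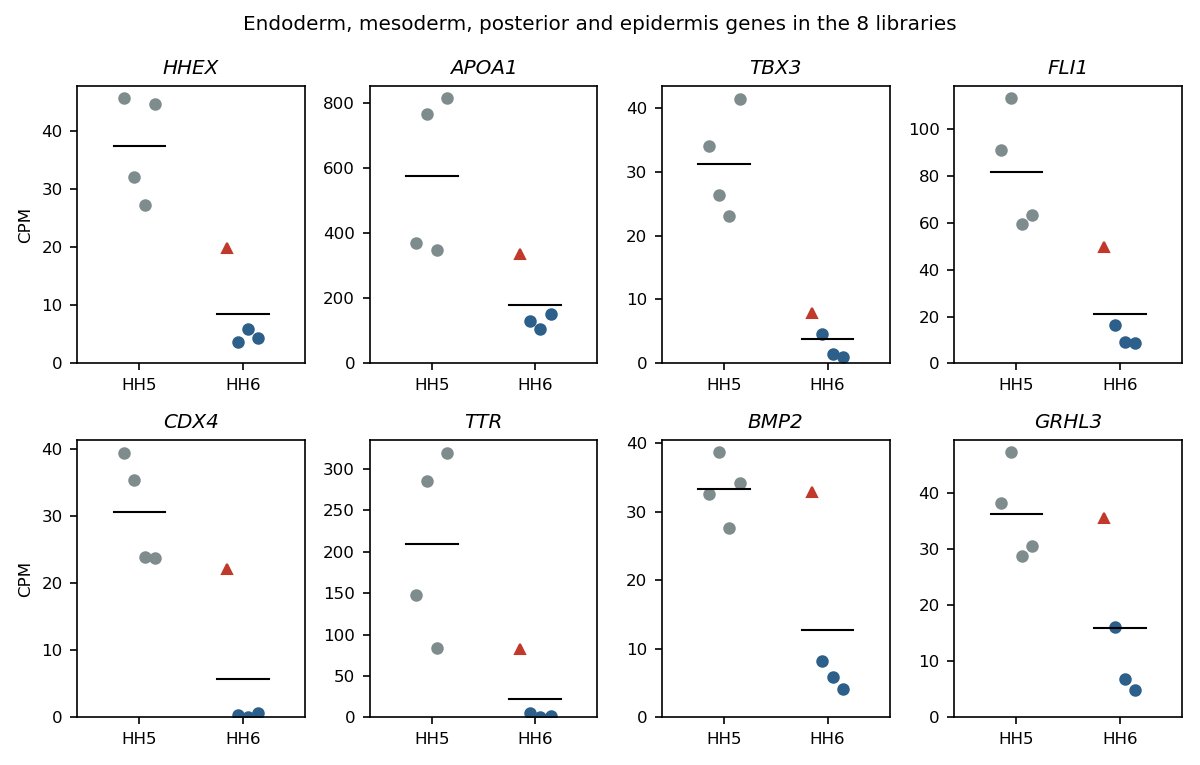
CPM (vertical axes, each starting at 0) of HHEX, APOA1, TBX3, FLI1, CDX4, TTR, BMP2 and GRHL3 in the 4 HH5 libraries (grey) and 4 HH6 libraries (blue, with HH6 replicate 1 as a red triangle); horizontal lines are means. HH6 replicate 1 is the highest HH6 library in all 8 genes and lies within the HH5 range for BMP2 and GRHL3.

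Of 18 mesoderm genes 1 fell, and the list's median of 0.042 was close to that of all genes. The gene that fell, TBX3, is a T-box factor of lateral tissues that is not confined to mesoderm. It measured 34.0, 26.3, 23.0 and 41.4 CPM at HH5 and 7.84, 4.65, 1.55 and 0.936 CPM at HH6 (log2 fold change -3.07 ± 0.68, adjusted p = 0.0105, edgeR), and was called in 6 of the 8 fits without 1 library, not without HH6 replicate 3 or 4 (adjusted p at most 0.0909). HAND2, of lateral plate mesoderm, was added without HH6 replicate 1 (-2.50, adjusted p = 0.0191). Of 11 heart genes edgeR called 0 with all libraries, 1 was lower at an unadjusted p below 0.05, and DESeq2 called 0. The heart list's summed level was highest in HH6 replicate 1, at 182 CPM, against 89.2 to 149 CPM at HH5 and 31.5 to 83.2 CPM in the other HH6 libraries. TBX5, a factor of the heart field, followed that pattern with 34.6 CPM in HH6 replicate 1 and 16.0, 1.08 and 0.520 CPM in HH6 replicates 2 to 4, and was called in neither fit. GATA4, of heart and endoderm, was called as a fall without HH6 replicate 1 (-2.38, adjusted p = 0.0164, edgeR).

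Of 14 blood and vessel genes, 1 fell, CDH5 (VE-cadherin), and 13 were not called. It measured 1.37, 1.26, 0.462 and 0.492 CPM at HH5, had at most 3 reads in every HH6 library, and was at least 7.26-fold lower at HH6 against a floor of 3 reads a library (adjusted p = 0.0105, edgeR). The fall was not called without HH6 replicate 4 (adjusted p = 0.0909). FLI1, an ETS factor of blood and vessel precursors, measured 91.2, 113, 59.5 and 63.5 CPM at HH5 and 49.8, 16.4, 9.35 and 8.56 CPM at HH6. Its adjusted p was 0.0553 with all libraries and 0.00326 without HH6 replicate 1 (log2 fold change -2.86, edgeR).

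Some posterior genes differed widely among the HH6 libraries. CDX4, a caudal factor that sets posterior Hox expression, measured 39.3, 35.3, 23.8 and 23.7 CPM at HH5. It measured 22.1 CPM in HH6 replicate 1 and 0.351, 0.0773 and 0.624 CPM in HH6 replicates 2 to 4. The log2 fold change was -2.41 ± 1.02 with all libraries (adjusted p = 0.255) and -6.43 without HH6 replicate 1 (adjusted p = 0.00141, edgeR). The summed level of the posterior list was 157 to 203 CPM at HH5 and 223 to 305 CPM at HH6, higher in every HH6 library. Its most abundant member at HH6 was CYP26A1, which breaks down retinoic acid and is also in the retinoic acid list. Without CYP26A1, the posterior sum in HH6 replicates 2 to 4 lay within or below the HH5 range. The list's median log2 fold change was -0.55 with all libraries and -0.96 without HH6 replicate 1. CYP26A1 measured 62.5, 97.1, 61.9 and 91.7 CPM at HH5 and 93.8, 227, 217 and 186 CPM at HH6 (log2 fold change 1.21 ± 0.55, adjusted p = 0.302, edgeR), so the stages overlapped in HH6 replicate 1. Of 19 posterior genes, HOXB7 fell with all libraries (adjusted p = 0.0415, and 0.00619 to 0.217 over the 8 fits without 1 library), and CDX2, CDX4 and HOXB5 were called as falls besides it without HH6 replicate 1. HOXB7 had at most 3 reads in each of HH6 replicates 2 to 4, at least 29.4-fold below HH5 against 3 reads a library.

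Of 14 genes of the epidermis list 1 fell with all libraries, EPAS1, a hypoxia-inducible factor (adjusted p = 0.0227, and 2.92e-05 to 0.163 over the fits without 1 library, edgeR), and 6 fell without HH6 replicate 1. These 6 were EPAS1, GATA2, KRT7, KRT18, GRHL3 and TFAP2C, and the list's median log2 fold change went from -0.55 to -1.09. Over all genes tested, 0.669% fell with all libraries and 1.62% without HH6 replicate 1. With all libraries, 6 genes of the list were lower and 1 higher at an unadjusted p below 0.05 (edgeR), against 6.83% and 6.91% of all genes tested. TP63, another member, lay higher in every HH6 library and was not called. GATA2, a factor of non-neural ectoderm and blood, measured 81.5, 102, 86.1 and 117 CPM at HH5 and 66.7, 35.8, 22.8 and 29.2 CPM at HH6, with adjusted p of 0.0531 in the full fit and 0.00853 without HH6 replicate 1 (edgeR). GRHL3, a factor of surface ectoderm, measured 38.2, 47.3, 28.8 and 30.6 CPM at HH5 and 35.6, 16.1, 6.84 and 4.92 CPM at HH6. The keratin gene KRT7 measured 203 CPM in HH6 replicate 1, inside the HH5 range of 174 to 283 CPM, and 86.9 to 106 CPM in the others. Of 14 preplacodal genes edgeR called 0 in either fit. At an unadjusted p below 0.05, 1 was lower, and DESeq2 called 0.

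**Figure D4:**
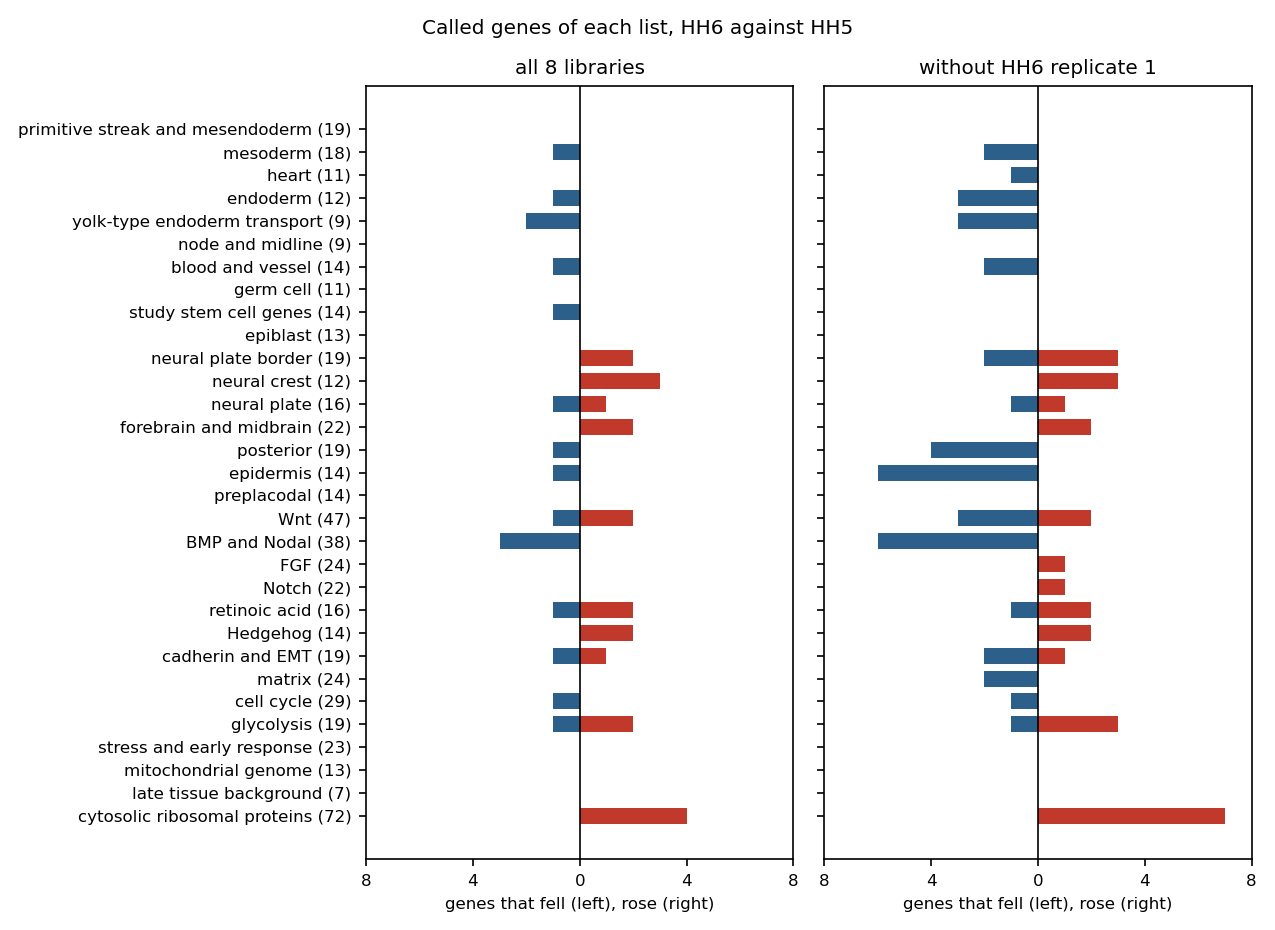
Number of called genes that fell (blue, left) and rose (red, right) in each list, with the genes tested in brackets, for the fit of all libraries and the fit without HH6 replicate 1. The posterior list goes from 1 to 4 falls and the epidermis list from 1 to 6, while the crest list has 3 rises in both. Without HH6 replicate 4, which is not plotted, the posterior and epidermis lists have 0 falls and the crest list 2 rises.

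Signalling genes changed in several pathways, and their counts stand beside 0.626% rising and 0.669% falling over all genes tested. R-spondins are secreted proteins that raise the response to Wnt, and 2 of them went in opposite directions. RSPO1 measured 2.18, 2.79, 2.74 and 3.33 CPM at HH5 and 7.74, 12.2, 11.9 and 16.4 CPM at HH6 (log2 fold change 2.13 ± 0.40, adjusted p = 0.00225, edgeR). RSPO3 measured 186, 165, 163 and 250 CPM at HH5 and 47.7, 27.0, 82.8 and 96.5 CPM at HH6 (-1.59 ± 0.32, adjusted p = 0.00371, edgeR). Neither overlapped between the stages, and both were called in all 8 fits without 1 library.

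SFRP2, a secreted inhibitor of Wnt ligands, rose from 140 to 198 CPM at HH5 to 251 to 446 CPM at HH6 (log2 fold change 1.14 ± 0.27, adjusted p = 0.016, edgeR), and was called in 3 of the 8 fits without 1 library (adjusted p at most 0.0964). With these, 2 of the 47 listed Wnt genes rose and 1 fell, at a list median of -0.023. Wnt ligand genes outside the list were not counted, and without HH6 replicate 1 some of them were called, in both directions (edgeR). LEF1 and TCF7L2, factors through which Wnt acts on genes, were not called in the full edgeR fit. Without HH6 replicate 1 they were called as falls, at -1.56 (adjusted p = 0.0154) and -1.01 (adjusted p = 0.038, edgeR). DESeq2 with all libraries called 3 rises and 3 falls in the Wnt list. WISP1, a matrix protein induced by Wnt and outside the list, measured 15.6, 13.6, 8.32 and 15.2 CPM at HH5 and 2.49, 0.658, 0.541 and 0.0347 CPM at HH6, the largest fall named by rule (-3.85 ± 0.85, adjusted p = 0.0105, edgeR). It was not called without HH6 replicate 2 or 4 (adjusted p at most 0.0745).

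In the BMP and Nodal list 3 of 38 genes fell and 0 rose, at a median of -0.24, and all 3 are modulators of BMP signals. BAMBI, a receptor decoy, measured 12.6, 17.4, 14.1 and 16.1 CPM at HH5 and 6.79, 3.56, 1.28 and 1.53 CPM at HH6 (-2.20 ± 0.46, adjusted p = 0.00703, edgeR). SMAD6, an inhibitory Smad, fell from 35.0 to 47.5 CPM to 13.4 to 26.0 CPM, and BMPER, a binding protein of BMPs, from 7.40 to 11.9 CPM to 0.155 to 2.58 CPM. Of the 8 fits without 1 library, BAMBI was called in 7, SMAD6 in 4 and BMPER in 1, and all 3 lost their call without HH6 replicate 4, with adjusted p of 0.0726, 0.121 and 0.217 (edgeR).

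Without HH6 replicate 1 the ligand gene BMP2, the receptor gene ACVR1 and SMAD5 were called as falls too. BMP2 measured 32.6, 38.8, 27.6 and 34.2 CPM at HH5 and 33.0, 8.25, 5.95 and 4.13 CPM at HH6. HH6 replicate 1 sat inside the HH5 range, and the log2 fold change was -1.38 ± 0.40 with it (adjusted p = 0.0596) and -2.47 ± 0.38 without it (adjusted p = 8.4e-05, edgeR). BMP4, the related ligand in the border list, had a log2 fold change of 0.12 ± 0.34 and was called in neither fit.

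In the retinoic acid list of 16 genes, 2 rose and 1 fell. STRA6, the cell-surface receptor for retinol bound to its carrier, measured 66.4, 63.6, 60.5 and 55.3 CPM at HH5 and 110, 161, 135 and 137 CPM at HH6. It rose by 1.14 ± 0.20 on the log2 scale (adjusted p = 0.00105, edgeR), in all 8 fits without 1 library. CRABP2, an intracellular carrier of retinoic acid, went from 15.7 to 20.4 CPM to 26.0 to 48.4 CPM (0.91 ± 0.24, adjusted p = 0.0349, called in 1 of the 8 fits without 1 library). ALDH1A3, which makes retinoic acid, fell from 12.1 to 18.9 CPM to 1.46 to 8.84 CPM (-2.13 ± 0.49, adjusted p = 0.0145, edgeR), with HH6 replicate 1 the highest of HH6. It was not called without HH6 replicate 2, 3 or 4 (adjusted p at most 0.12).

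Of 14 Hedgehog genes, 2 rose and 0 fell. BOC, a co-receptor for Hedgehog ligands, measured 8.20, 8.89, 10.6 and 11.8 CPM at HH5 and 23.7, 37.0, 29.5 and 39.5 CPM at HH6 (1.71 ± 0.30, adjusted p = 0.000709, edgeR), and was called in all 8 fits without 1 library. GLI3, a transcription factor of the pathway, rose by 1.01 ± 0.23 (adjusted p = 0.0145, called in 4 of those 8 fits). Of 24 FGF genes edgeR called 0, with 3 higher and 3 lower at an unadjusted p below 0.05, and DESeq2 called 1 rise. Of 22 Notch genes edgeR called 0, with 3 higher at that p, and DESeq2 called 0. Without HH6 replicate 1, ETV4, a target of FGF (1.02, adjusted p = 0.0344), and LFNG, a modifier of Notch (0.76, adjusted p = 0.0483, edgeR), were called as rises.

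Of the 14 stem cell genes that the study followed in these libraries, NANOG fell. It measured 36.1, 12.4, 10.5 and 54.7 CPM at HH5 and 6.60, 5.44, 9.20 and 12.3 CPM at HH6, and the stages overlapped. The log2 fold change of -1.76 ± 0.46 had an adjusted p of 0.0344, which was 0.0562 without HH6 replicate 1 and 0.0813 without HH6 replicate 4 (edgeR). It was called in 2 of the 8 fits without 1 library, with adjusted p between 0.0198 and 0.18. The list's median was -0.044. At an unadjusted p below 0.05, 1 of its genes was higher and 4 lower (edgeR), against 6.91% and 6.83% of all genes tested. Pou5f3, the chick PouV factor, measured 19.0 to 25.0 CPM at HH5 and 15.5 to 19.9 CPM at HH6 (-0.31 ± 0.25), and SALL4 224 to 300 CPM and 186 to 211 CPM (-0.41 ± 0.18), neither called. Of 13 epiblast genes edgeR called 0, at a median of 0.018, with 1 lower at an unadjusted p below 0.05, and DESeq2 called 0.

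The genes named by rule included others outside the lists. CRHBP, a binding protein of corticotropin-releasing hormone, measured 4.92, 4.75, 5.32 and 4.81 CPM at HH5 and 27.5, 46.9, 29.1 and 18.5 CPM at HH6 (2.62 ± 0.51, adjusted p = 0.00315, edgeR). EBF2, a helix-loop-helix factor, rose by 2.10 ± 0.33, and BRINP2, a secreted protein of neural tissue, by 1.70 ± 0.27. These 3 were called in all 8 fits without 1 library. DRAXIN, a secreted guidance protein that also blocks Wnt, rose by 1.66 ± 0.41, TAFA1, a secreted neural protein, by 1.61 ± 0.42, and KBP, a kinesin-binding protein, by 1.56 ± 0.35, and each lost its call without HH6 replicate 4 (adjusted p of 0.0923, 0.149 and 0.0804, edgeR). KBP was called in the other 7 such fits, and DRAXIN and TAFA1 in 2.

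Among the named falls outside the lists, BTBD6, an adaptor of a ubiquitin ligase, measured 621, 156, 115 and 368 CPM at HH5 and 93.7, 57.5, 81.3 and 45.9 CPM at HH6 (-2.18 ± 0.41, adjusted p = 0.00225, edgeR). It was the only 1 of the 10 falls named by rule that was called in all 8 fits without 1 library. PDZK1IP1, a small membrane protein, fell by 2.69 ± 0.60, and PLCXD1, a phospholipase-like protein, by 2.24 ± 0.54, both with HH6 replicate 1 the highest of HH6. They were called in 5 and 3 of the 8 fits.

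Further genes were picked after their values were seen. TUBB3 and DCX, a tubulin and a microtubule protein of young neurons, rose by 1.07 ± 0.26 and 1.04 ± 0.25, and ASTN1, an adhesion protein of migrating neurons, by 1.39 ± 0.26. TUBB3 measured 47.3, 63.7, 74.1 and 82.9 CPM at HH5 and 106, 185, 119 and 153 CPM at HH6. ALX1, a homeobox factor of cranial mesenchyme, rose by 1.37 ± 0.38. Of these, ASTN1 was called in all 8 fits without 1 library, DCX in 5, TUBB3 in 4 and ALX1 in 1. Among falls called in all 8 fits without 1 library, SLC34A2, a phosphate transporter, measured 41.8, 18.1, 20.5 and 37.1 CPM at HH5 and 8.94, 7.51, 8.73 and 9.33 CPM at HH6 (-1.77 ± 0.27, adjusted p = 0.000228, edgeR). The HH6 libraries, replicate 1 included, lay within a narrow range. ANO3, of the anoctamin membrane proteins, RGN, a calcium-binding protein, and the kinase SGK1 had log2 fold changes of -1.67 ± 0.26, -1.72 ± 0.34 and -1.79 ± 0.33.

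Metabolic, cell cycle and matrix genes were examined next, and their counts stand beside 0.626% rising and 0.669% falling over all genes tested. Of 29 cell cycle genes 1 fell and 0 rose, at a median log2 fold change of 0.12. The list's summed level was 5645 to 6236 CPM at HH5 and 6498 to 7559 CPM at HH6. Of its members, 6 were higher in every HH6 library and 1 lower, against 5.39% and 5.38% of all genes tested. The gene that fell was CDK6, a kinase of the G1 phase (-1.14 ± 0.30, adjusted p = 0.0305, edgeR), and in 3 of the 8 fits without 1 library. Of 19 glycolysis genes 2 rose and 1 fell, and their summed level was 9609 to 11580 CPM at HH5 and 11400 to 17280 CPM at HH6. LDHB, a lactate dehydrogenase subunit, measured 1860, 1933, 1844 and 2326 CPM at HH5 and 2694, 4093, 3668 and 4967 CPM at HH6 (0.95 ± 0.18, adjusted p = 0.00182, edgeR), and TPI1 rose by 0.95 ± 0.20, while SLC2A1, the main glucose importer, fell by 1.07 ± 0.27. LDHB was called in all 8 fits without 1 library, TPI1 in 5 and SLC2A1 in 3. Of 24 matrix genes edgeR called 0, with 3 higher and 4 lower at an unadjusted p below 0.05, and DESeq2 called 0. FN1, the fibronectin gene, was called as a fall without HH6 replicate 1 (-0.99, adjusted p = 0.0275), having 266 CPM there and 126 to 163 CPM in the other HH6 libraries.

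Ribosomal, stress and mitochondrial genes were examined as values that can follow RNA quality. Of 72 cytosolic ribosomal protein genes, a list added after seeing the data, 4 rose and 0 fell, with a median log2 fold change of 0.44. Over all genes tested, 0.626% rose and 0.669% fell. Of the 72, 28 lay higher in every HH6 library, against 5.39% of all genes tested. The list's summed level was 59840 to 64960 CPM at HH5, 68200 CPM in HH6 replicate 1 and 82200 to 99350 CPM in the other HH6 libraries. Of 23 stress genes and 13 mitochondrial genes edgeR called 0 in each list, with 2 and 0 of them higher and 0 lower at an unadjusted p below 0.05, and DESeq2 called 0. The summed stress level was 19550, 22000, 22180 and 25520 CPM in HH5 replicates 1 to 4 and 21700, 31300, 22210 and 33970 CPM in HH6 replicates 1 to 4, highest in HH6 replicates 2 and 4. Leaving out HH6 replicate 2 gave 57 calls over all genes and leaving out HH6 replicate 4 gave 46. HSPA8, a constitutive chaperone gene, measured 5702 to 10172 CPM at HH5 and 6778, 14164, 8196 and 15303 CPM in HH6 replicates 1 to 4, and was not called. The summed mitochondrial level was 10590 to 13080 CPM at HH5 and 11450 to 13720 CPM at HH6. The part of the ribosomal and stress levels in the other results was not tested.

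A further 3 marker lists gave 0 calls by edgeR and by DESeq2, node and midline (9 genes, 1 higher and 4 lower at an unadjusted p below 0.05), germ cell (11 genes, 0 higher and 2 lower) and late differentiated tissues (7 genes, 0 at that p). The endoderm list summed to 502 to 738 CPM at HH5, 510 CPM in HH6 replicate 1 and 248 to 310 CPM in the other HH6 libraries, and the yolk-type list to 450 to 1166 CPM, 438 CPM and 122 to 171 CPM. The blood and vessel list summed to 92.7 to 158 CPM, 117 CPM and 47.2 to 57.4 CPM, and the epidermis list to 1110 to 1804 CPM, 1378 CPM and 613 to 780 CPM. The preplacodal list summed to 912 to 1354 CPM, 1182 CPM and 607 to 717 CPM, with GATA3, a factor of non-neural ectoderm that was called in neither fit, as its most abundant member. The same order held for the study's stem cell genes, at 2798 to 4501 CPM, 2890 CPM and 1753 to 2354 CPM. It also held for the germ cell list (63.3 to 88.4 CPM, 66.6 CPM and 35.9 to 53.9 CPM). The matrix list followed it too (2048 to 2255 CPM, 2092 CPM and 1692 to 1972 CPM). Not every list followed this order. The border list had 297 to 459 CPM at HH5, 418 CPM in HH6 replicate 1 and 335 to 451 CPM in the others. The node and midline, retinoic acid and posterior lists had higher sums in every HH6 library than in any HH5 library, at 246 to 348 CPM against 105 to 213 CPM for node and midline and 465 to 596 CPM against 352 to 382 CPM for retinoic acid. The most abundant member of the node list was FST, the follistatin gene, an inhibitor of activins and BMPs, with 136, 118, 155 and 56.0 CPM at HH5 and 257, 324, 221 and 257 CPM at HH6 (log2 fold change 1.19 ± 0.39, adjusted p = 0.111, edgeR). Without FST, the node list's sum was lower in every HH6 library than in any HH5 library. The node list's median log2 fold change was -0.54. CYP26A1 is in both the retinoic acid and posterior lists, whose medians were -0.20 and -0.55. Without it, the sums of both lists overlapped between the stages. The part of tissue makeup in the falls was not tested.

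HH6 replicate 1 was not uniformly close to HH5. Of the 196 genes called as rises without it, it lay nearer the other HH6 libraries for 78 (39.8%), and of the 300 called as falls for 80 (26.7%). For PAX7, TFAP2B, ZIC1, CRHBP and STRA6 it lay above every HH5 library. For CDX4, TTR, MSX2 and BMP2 it lay far above the other HH6 libraries. Among the falls it was at or above the lowest HH5 library for 134 genes and at or below the highest of the other HH6 libraries for 31. Among the rises, 51 genes were at or below the highest HH5 library and 28 at or above the lowest of the other HH6 libraries. The difference between rises and falls in this respect was not tested.

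**Figure D5:**
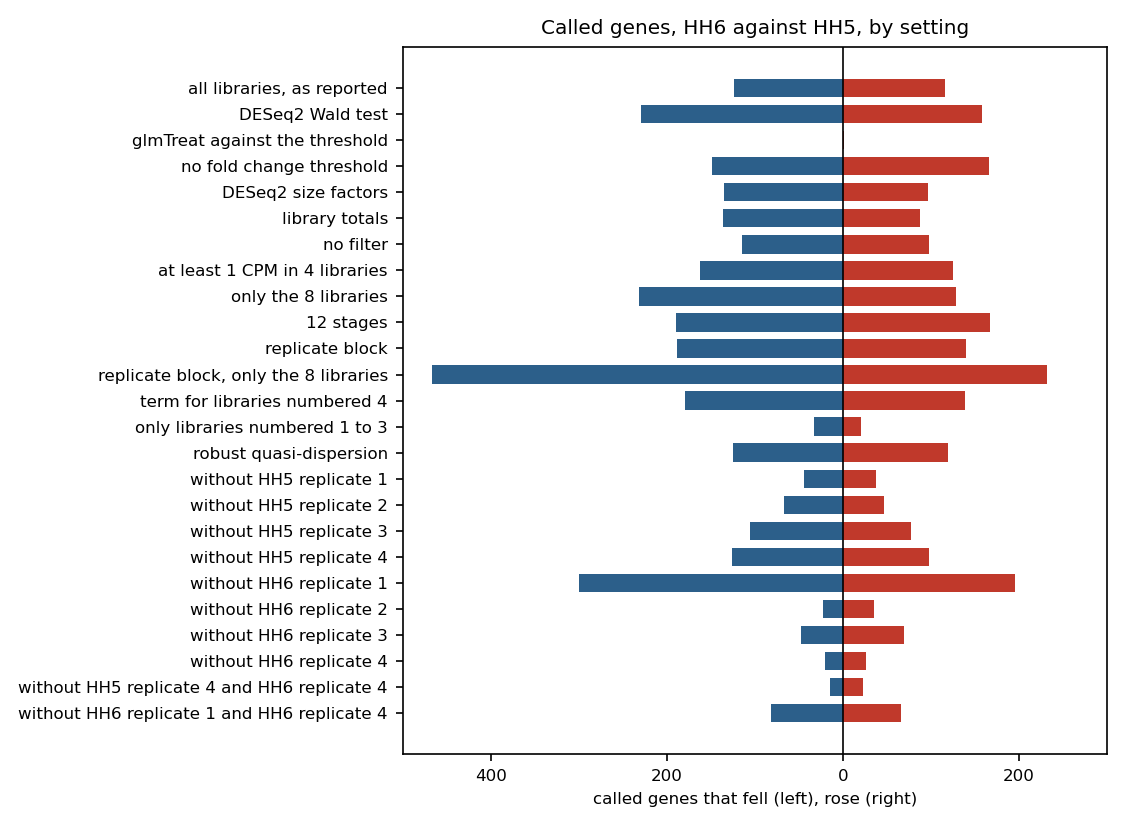
Number of called genes that fell (blue, left) and rose (red, right) from HH5 to HH6 under each setting. The count is 240 as reported, 496 without HH6 replicate 1 and 46 without HH6 replicate 4.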

How the data were processed

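The authors mapped paired reads with STAR (version 2.7.2a in the submitters' processing notes, which name the build GRCg6a) and deposited raw counts per gene, a filtered copy, and a TMM-scaled signal. The deposited signal table was used only for gene symbols, and CPM were recomputed from the counts with TMM factors. A gene was tested if any of the 45 libraries had over 5 reads for it, as in the filtered copy (18525 genes). Of these, 12245 had a symbol in the deposited files, 1157 took one from RefSeq and 5123 had none. Of 538 listed symbols, no gene matched 49, and 1 further gene is not reported here.

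HH6 was set against HH5 by edgeR 4.0.16 (glmQLFit and glmQLFTest, R 4.3.3) in a fit of all 45 libraries in 6 pooled stage groups. Calls needed a Benjamini-Hochberg adjusted p below 0.05 together with a log2 fold change beyond 0.75. Standard errors are the log2 fold change over the root of F. DESeq2 1.42.0 was an alternative, as were other scalings, filters, groupings, replicate blocks and fits without each library. Genes were named from 30 lists and by a rule, which took the 10 largest rises and 10 largest falls among called genes that had a symbol, averaged 5 CPM or more and did not overlap between the stages. Where no library of a group exceeded 3 reads, a bound against 3 reads a library replaced the fold change. Positions used log2 CPM with a prior count of 2. The members and lists were chosen with earlier results of these data known. The fit was tested on simulated data. The kit does not mark strand, so reads of overlapping genes cannot be told apart, and intervals cover neither this nor PCR duplicates. Each replicate was a pool of embryos by the methods. The spread behind the p-values was estimated over all 45 libraries, and some of the 6 groups merge stages. It therefore holds differences between merged stages and spread in later tissue besides that between HH5 and HH6 pools. With only the 8 libraries, adjusted p went from 0.245 to 0.0402 for FOXA2 and from 0.0467 to 0.0802 for ZIC1 (edgeR).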

Additional observations from a re-analysis of the deposited data

Results flagged for a closer look

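Within each stage, libraries that stood apart were looked for by Dixon's criterion for 4 samples, over 262 sets of 4 values (the genes of the text and the summed lists in each stage). Chance picks out about 1 in 20 of unselected sets, but some of these genes are in the text because HH6 replicate 1 decides their call, so how often that library was picked out is not set against chance. HH6 replicate 1 was picked out most often. It was the highest HH6 library for MSX2 (8.17 CPM), HHEX (19.8 CPM), FOXA2 (21.4 CPM), TTR (83.1 CPM), CUBN (0.765 CPM), HOXB7 (0.765 CPM), CDX4 (22.1 CPM), CDX2 (2.58 CPM), HOXB5 (5.69 CPM), EPAS1 (6.79 CPM), KRT7 (203 CPM), BMP2 (33.0 CPM), ALDH1A3 (8.84 CPM), PDZK1IP1 (14.6 CPM) and ANO3 (97.7 CPM), and for the summed yolk-type (438 CPM) and blood and vessel (117 CPM) lists. It was the lowest for SFRP2 (251 CPM).

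Among the other libraries, HH6 replicate 4 was the highest of HH6 for FOXD3 (0.277 CPM) and HH6 replicate 2 for the summed retinoic acid list (596 CPM). At HH5, replicate 1 was the highest for SOX17 (24.8 CPM), replicate 2 for PAX7 (3.01 CPM) and replicate 4 for the summed glycolysis list (11580 CPM), and replicate 3 was the lowest for BMPER (7.40 CPM) and PLCXD1 (77.3 CPM).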

How the results depend on the processing

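The 240 calls became 387 under DESeq2's Wald test, 1 under a test against the fold change threshold (glmTreat), 698 with a replicate block in only the 8 libraries, and 54 with only libraries numbered 1 to 3. Leaving out 1 library gave 46 to 496 calls. In fits chosen after seeing the data, leaving out both libraries numbered 4 gave 38, and leaving out HH6 replicates 1 and 4 gave 147. Every other setting stayed within 1.5 times in count, though the genes called could differ. The fit of only the 8 libraries gave 360 calls, 173 of them shared with the 240. Leaving out HH5 replicate 4 gave 224 calls, with 160 shared. The replicate block over all libraries gave 328 calls, 238 of them shared with the 240. Libraries with the same number shared no label of a common source, so the numbers were not taken as pairs. The deviations of HH5 and HH6 libraries numbered 1 to 4 correlated at 0.144, 0.0819, 0.0372 and 0.374. Those of libraries with different numbers correlated at -0.296 to 0.261. Whether libraries with the same number had a common source was not tested. None of the 51 called genes in the text reversed direction under any setting, and 314 of 1221 of their values lost the call. MSX1, not called, ranged from -0.70 to 0.064 on the log2 scale when 1 library was left out, with the reversal without HH5 replicate 1. The causes were not tested. Genes with few reads, such as FOXD3 and CDH5, limit what this depth can show.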
